A study of Bos taurus with 5 samples.

Results

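The genes described here are the ubiquitin-conjugating enzymes and ligases of bovine muscle, together with the activating enzymes, cullins, substrate receptors and SUMO and UFM1 factors that work with them. They were chosen by gene symbol, from families such as UBE2, RNF, TRIM, CUL, KLHL, ASB, FBXO, DCAF and SENP, without use of their values, and TRIM63 and FBXO32, the ligases of muscle atrophy, were set apart. The rule, set with earlier results of these data known, found 173 of the 9022 genes listed. The material was longissimus dorsi, a back muscle, taken at 18 months of age from 5 Jiaxian Red cattle, a Chinese breed, with no treatment named. Each animal gave 1 RNA-seq library, and the 5 libraries formed 1 group, so no condition was compared and the results are levels, differences between genes of the same library, and the spread between libraries.

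Ubiquitin is attached to proteins in a relay. An E1 enzyme activates it, an E2 enzyme carries it, and an E3 ligase brings the E2 to the substrate, which is often then degraded by the proteasome. Cullin ligases are built from parts: a cullin scaffold holds a RING protein at one end and, through adaptors, an exchangeable substrate receptor at the other. F-box proteins serve CUL1, BTB-Kelch proteins CUL3, DCAF proteins CUL4A and CUL4B, and SOCS box proteins CUL2 or CUL5. In striated muscle this system sets the turnover of sarcomere proteins, and several ASB, KLHL and TRIM ligases are known as muscle genes.

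Values are FPKM (fragment numbers corrected for the length of the transcript and for sequencing depth), added up over each gene's listed transcripts. Levels of different genes are set side by side on this scale, with the limit that a sum may lack transcripts the table does not list. Summed FPKM per library ran from 193706 to 223251, and read depth is unknown because the values are not counts. All 8 muscle fibre markers were detected, CKM, the muscle creatine kinase, at 2.50 to 35.5 FPKM and ACTA1, skeletal actin, at 4575 to 5658 FPKM. Together they summed to between 18739 and 23399 FPKM, against 394 to 845 FPKM for 3 fibroblast markers, 77.9 to 90.3 for 5 endothelial markers and 1.77 to 3.97 for 2 leukocyte markers. The 1 adipocyte marker listed, CIDEC, was at or under 0.809 FPKM in every library and listed at 0 in library 5. In bulk muscle, fewer cells of a type and less RNA per cell cannot be told apart.

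Most of these genes were expressed, and a small number carried much of the signal. A mean of at least 1 FPKM, the detection limit used here, was reached by 146 of 173 members (84.4%), against 68.0% of all listed genes and 71.4% of those with a symbol. A mean of 10 FPKM was reached by 60 members (34.7%), against 24.1% of all genes, and 6 members averaged over 100 FPKM. Whether these shares differ beyond chance was not tested. Members together held 1.31% ± 0.0857 of the summed FPKM (SD, n = 5). The 5 highest members, ASB5, ASB2, UBR3, SKP1 and KLHL24, carried 32.1% of the members' FPKM, and the 10 highest carried 47.0%.

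Among the listed members, the SOCS box receptors formed the class of highest summed level although they had few members. Their 9 listed genes summed to 541 ± 34.4 FPKM (SD, n = 5), which was 19.9% of the FPKM of all members. The 49 RING and TRIM ligases together summed to 353 ± 24.3 FPKM and the 14 E2 enzymes to 317 ± 50.7 FPKM. BTB-Kelch proteins followed at 296 ± 11.3 FPKM, the UBR family at 247 ± 33.9, cullins with RBX1 at 238 ± 27.4, F-box proteins with SKP1 and SKP2 at 228 ± 21.0 and HECT ligases at 217 ± 20.5. The SUMO and UFM1 factors (117 ± 10.4), the DCAF receptors (60.7 ± 5.75), the COP9 signalosome (52.6 ± 6.26), the E1 enzymes (46.7 ± 5.34) and the U-box ligases (6.63 ± 1.82) were lower. The lowest SOCS box sum of any library, 498 FPKM in library 1, was above the highest RING and TRIM sum, 370.0 FPKM in library 4. All class sums hold only listed genes that the rule took, so the order of the classes depends on that choice. TRIM63 (mean 100 FPKM) lay outside the RING and TRIM sum, and CDC34 (mean 81.5 FPKM) outside the E2 sum.

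**Figure D1:**
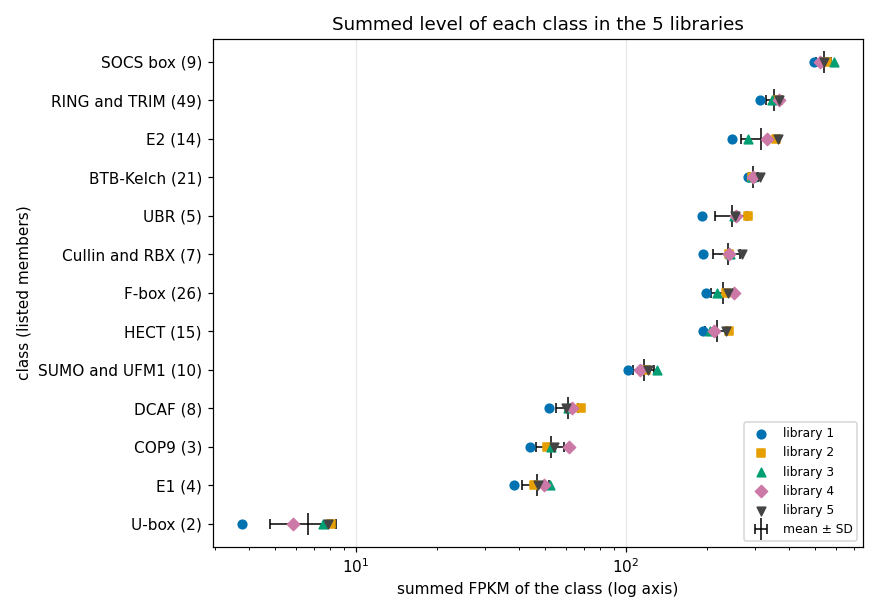
Summed FPKM of each class of members (log axis), with 1 point per library and the mean ± SD over 5 libraries; the number of listed members stands after the class name. The SOCS box sums, from 498 to 589 FPKM, lie to the right of every other class, and library 1 has the lowest sum in each class.

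Among the E1 enzymes, the listed sums of UBA3 and UBA2, which serve ubiquitin-like proteins, were higher than those of UBA6 and UBA1, which serve ubiquitin. UBA3, the catalytic subunit of the enzyme that activates NEDD8, was at 15.8, 16.9, 21.1, 22.3 and 20.1 FPKM in libraries 1 to 5. UBA2, the corresponding subunit for SUMO, was at 16.8, 16.9, 17.8, 18.8 and 18.0 FPKM. Neither varied much, and the ranges of both overlapped. UBA6, the alternative ubiquitin E1, averaged 6.77 ± 0.789 FPKM (SD, n = 5). UBA1, the main E1 of ubiquitin, was at 0.0112, 5.45, 6.90, 1.03 and 1.81 FPKM in libraries 1 to 5, low in library 1 and high in libraries 2 and 3. The table listed 1 UBA1 transcript, so the level of the gene may be incomplete, and its sum was below that of UBA6 in 4 of 5 libraries and above it in library 3.

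UBE2G1 and UBE2D1 stood well above the other E2 enzymes with a UBE2 symbol. UBE2G1, an E2 that extends ubiquitin chains, was at 86.3, 139.6, 94.6, 108 and 143 FPKM in libraries 1 to 5, a mean of 114 ± 25.8 (SD, n = 5). UBE2D1, of the broadly acting UBE2D family, was at 57.5, 92.6, 65.5, 75.7 and 77.7 FPKM, a mean of 73.8 ± 13.3. Both were lowest in library 1 and above every other listed UBE2 gene in all 5 libraries. CDC34, an E2 of cullin ligases whose symbol the rule did not take, was at 81.5, 82.2, 71.6, 92.4 and 79.7 FPKM, above UBE2D1 in libraries 1, 3, 4 and 5. UBE2G1 and UBE2D1 together carried 59.0% ± 3.85 of the E2 FPKM. UBE2H (21.7 ± 3.90 FPKM), UBE2B (20.7 ± 9.73), UBE2Q2 (19.8 ± 1.75) and UBE2E3 (19.0 ± 1.40) formed the next tier (SD, n = 5). UBE2B, one of the mammalian RAD6 homologues, was at 11.2 FPKM in library 1 and 35.9 FPKM in library 4, whereas UBE2E3 stayed between 17.0 and 20.2 FPKM. UBE2V1, a variant without the catalytic cysteine that partners UBE2N, averaged 12.1 ± 2.08 FPKM. UBE2C, which acts with the anaphase-promoting complex in mitosis, and UBE2A, the other RAD6 homologue, averaged 0.202 and 0.200 FPKM. UBE2D1 and UBE2D4, and UBE2A and UBE2B, are close paralogues, so the split of reads within these pairs is uncertain, as it is between CUL4A and CUL4B and for SUMO2.

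WWP1 led the 15 HECT ligases listed. WWP1, a ligase of the NEDD4 family, was at 54.8, 83.9, 61.1, 68.8 and 73.6 FPKM in libraries 1 to 5, lowest in library 1 and highest in library 2. ITCH was even, at 23.3 ± 1.32 FPKM, as were HERC4 at 15.6 ± 1.09 and HERC2 at 13.3 ± 1.14 FPKM (SD, n = 5). NEDD4 and NEDD4L, which share substrates at the cell membrane, were less even. NEDD4 was at 3.17, 0.504, 3.37, 7.32 and 6.47 FPKM in libraries 1 to 5, and NEDD4L at 16.8, 22.6, 10.3, 10.3 and 17.9 FPKM. Library 2 had the lowest NEDD4 and the highest NEDD4L, and library 4 the highest NEDD4. HUWE1, a very large ligase of DNA repair and growth control factors, was at most 0.323 FPKM, from a single listed transcript of a gene whose transcript numbers had a gap. The U-box ligases, which extend chains begun by other enzymes, were low: UBE4A averaged 3.86 ± 0.404 FPKM, and UBE4B ranged from 0.260 FPKM in library 1 to 4.27 FPKM in library 2.

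UBR3 was the third most abundant member, and far above its relatives. The UBR family includes the N-recognins, ligases that read destabilising residues at protein ends. UBR3 was at 124, 202, 180.3, 186 and 183 FPKM in libraries 1 to 5, with library 1 apart from the other 4. It carried 64.8% to 72.5% of the UBR FPKM of each library. UBR2 averaged 34.5 ± 3.72 FPKM, UBR4 23.4 ± 2.39 and UBR1 11.1 ± 0.925 (SD, n = 5). The table places UBR3 at 26314651 to 26517652 of chromosome 2, and the next member on that chromosome, KLHL23, began 52.5 kb beyond it.

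**Figure D2:**
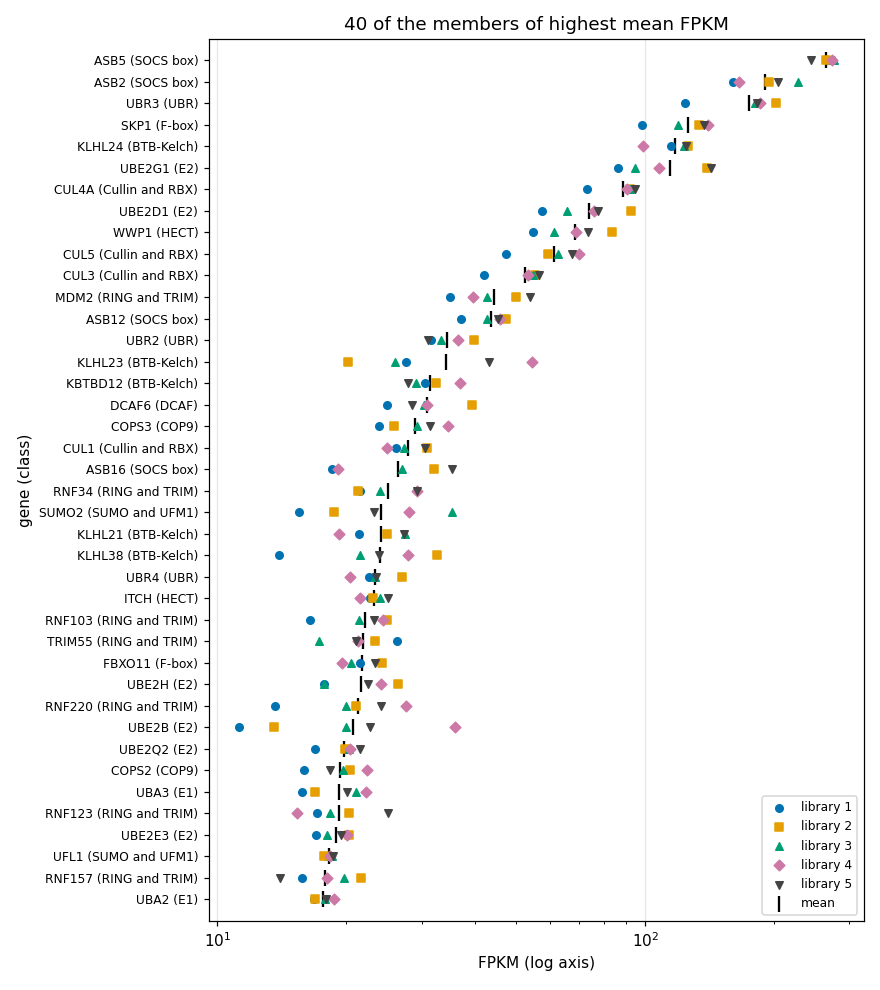
FPKM of 40 of the members of highest mean (log axis), highest at the top, with 1 point per library and a bar at the mean. ASB5 lies between 244 and 276 FPKM and is the highest member in all 5 libraries, and points spread most widely for UBE2B, KLHL23, SUMO2 and KLHL38.

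Among cullins, CUL4A, CUL5 and CUL3 were the abundant scaffolds. CUL4A was at 73.3, 92.1, 92.0, 90.8 and 94.7 FPKM in libraries 1 to 5, CUL5 at 47.4, 59.2, 62.4, 69.9 and 67.5 FPKM, and CUL3 at 42.0, 55.1, 54.6, 53.1 and 56.6 FPKM. The 3 kept this order in every library, and each was lowest in library 1. CUL1 averaged 28.0 ± 2.64 FPKM (SD, n = 5), with its lowest value in library 4. CUL2 was at 0.284, 0.495, 1.91, 0.303 and 16.5 FPKM, high in library 5 alone, and CUL4B did not exceed 0.196 FPKM in any library. Of the RING partners, RNF7, which serves CUL5, was at 6.26, 12.8, 15.1, 17.4 and 12.1 FPKM, above RBX1, which serves the other cullins, at 4.35, 3.58, 3.86, 2.34 and 3.32 FPKM in libraries 1 to 5. The transcript numbers of RBX1 and CUL2 had gaps, which means that some of their transcripts may be missing from these sums.

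Parts of the cullin cycle outside the chosen families were examined from a list of pathway genes. DCUN1D1, which promotes the attachment of NEDD8 to cullins, averaged 68.8 ± 11.8 FPKM, and NAE1, the partner of UBA3, averaged 9.51 ± 1.65 FPKM (SD, n = 5). CAND1, which exchanges substrate receptors on CUL1, was even at 14.2 ± 0.970 FPKM. The COP9 signalosome removes NEDD8 again: COPS3 averaged 29.0 ± 4.26 FPKM, COPS2 19.3 ± 2.39 and COPS7B 4.21 ± 0.336, and the other subunits were not analysed here. All 5 listed genes of the neddylation list were detected, and all 3 listed COP9 genes.

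The SOCS box class was carried by ASB5 and ASB2, ankyrin repeat proteins known as muscle genes. ASB5 was at 267, 264, 276, 273 and 244 FPKM in libraries 1 to 5, a mean of 265 ± 12.6 (SD, n = 5), and ranked 69 among the 6136 detected genes. ASB2, which directs filamin B to degradation during the differentiation of mouse muscle cells, was at 160.1, 195, 228, 166 and 204 FPKM. ASB5 was above ASB2 in each library, and ASB5 and ASB2 together made 82.4% to 85.8% of the class. The table places ASB5 at 7720264 to 7761066 of chromosome 27 and ASB2 at 58530348 to 58579232 of chromosome 21. ASB12 averaged 43.6 ± 3.95 FPKM, and ASB16 averaged 26.4 ± 7.60 FPKM, with low values in libraries 1 and 4 (18.5 and 19.1 FPKM). ASB10, ASB14 and ASB18 averaged 4.69 ± 1.61, 3.73 ± 1.08 and 3.08 ± 1.11 FPKM. Of the SPSB genes, SPSB2 averaged 4.52 FPKM and SPSB1 lay under 1 FPKM. The elongins, which tie SOCS box proteins to CUL5 and CUL2, were unequal in these sums: ELOB averaged 55.6 ± 10.6 FPKM and ELOC 6.93 ± 0.998 FPKM, and ELOC had a gap in its transcript numbers.

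KLHL24 led the 21 BTB-Kelch receptors. It was at 115, 126, 123, 99.0 and 124 FPKM in libraries 1 to 5, a mean of 118 ± 11.1 (SD, n = 5), and is known in human skin as a ligase that acts on keratin 14. KLHL23 was at 27.5, 20.2, 25.9, 54.5 and 43.2 FPKM, high in libraries 4 and 5. KBTBD12, of the muscle genes, was at 30.5, 32.5, 29.1, 36.9 and 27.8 FPKM. KLHL38, another, was at 13.9, 32.6, 21.5, 27.9 and 23.8 FPKM, lowest in library 1 and highest in library 2. KLHL30 ran differently, with its highest value in library 1, at 13.0, 6.95, 8.91, 5.58 and 10.2 FPKM. KLHL21, which acts with CUL3 in mitosis, averaged 24.1 ± 3.66 FPKM. KLHL31, KLHL40 and KLHL41, other Kelch genes of muscle, were not analysed here. Of 31 symbols of ligase, scaffold and E2 genes known or studied in muscle, 18 were listed. Of these, 16 were detected (88.9%, against 71.4% of listed genes with a symbol), the exceptions being FBXL22 and HUWE1.

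The receptors of CUL1 and of CUL4A that the rule took were less abundant one by one than their scaffolds. SKP1, the adaptor that joins F-box proteins to CUL1, was at 98.5, 134, 119, 141 and 137 FPKM in libraries 1 to 5 and made 49.8% to 57.3% of the F-box class sum. The highest F-box proteins were FBXO11 at 21.8 ± 1.90 FPKM, FBXW11, which recognises phosphorylated beta-catenin, at 15.2 ± 1.83 and FBXW8 at 13.4 ± 1.37 FPKM (SD, n = 5). FBXW7, the receptor for cyclin E and MYC, was at 2.78, 0.264, 0.138, 7.23 and 5.15 FPKM, low in libraries 2 and 3. DCAF6, a CUL4 receptor also called NRIP, averaged 30.8 ± 5.32 FPKM, above DCAF13 at 10.8 ± 1.24 and DCAF12 at 6.56 ± 0.646 FPKM. DDB1, the adaptor between CUL4A and DCAF proteins, averaged 20.2 ± 2.62 FPKM. The excluded F-box gene FBXO32 was at 31.0, 37.1, 13.5, 25.1 and 23.5 FPKM, and so averaged above every F-box protein listed here. FBXO32 was above CUL1 in libraries 1, 2 and 4 and below it in libraries 3 and 5.

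MDM2 headed the RING and TRIM ligases. MDM2, the ligase of p53, was at 35.0, 50.0, 42.6, 39.7 and 53.7 FPKM in libraries 1 to 5, while its partner MDM4 stayed between 0.904 and 2.43 FPKM. RNF34 averaged 25.1 ± 3.97 FPKM and RNF103, a ligase of the endoplasmic reticulum, 22.1 ± 3.43 FPKM (SD, n = 5). TRIM55, the muscle RING finger protein also called MuRF2, was at 26.2, 23.3, 17.3, 21.3 and 21.1 FPKM, with its highest value in library 1. Its excluded relative TRIM63 was at 96.9, 119, 74.0, 105 and 107 FPKM, above TRIM55 in every library. RNF123, the catalytic subunit of a ligase for the cell-cycle inhibitor p27, averaged 19.2 ± 3.70 FPKM. RNF31, of the linear ubiquitin chain assembly complex, averaged 10.7 ± 1.04 FPKM. Of 49 genes in this class 39 were detected.

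The SUMO and UFM1 systems were represented by their modifiers, ligases and proteases. SUMO2 was at 15.5, 18.7, 35.3, 28.0 and 23.2 FPKM in libraries 1 to 5, highest in library 3 and lowest in library 1. The SUMO ligases PIAS2 and PIAS1 averaged 15.9 ± 2.61 and 9.62 ± 1.01 FPKM. Among the SUMO proteases, SENP6 was at 6.99, 17.1, 17.4, 8.76 and 16.6 FPKM, low in libraries 1 and 4. SENP7 averaged 8.90 ± 1.19 FPKM, SENP1 4.16 ± 0.912, SENP5 2.97 ± 0.899 and SENP2 0.797 ± 0.145 (SD, n = 5). UFL1, the ligase of UFM1, was the most even detected member, at 17.9, 17.7, 18.5, 18.3 and 18.7 FPKM, and its cofactor DDRGK1 averaged 13.5 ± 1.53 FPKM.

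Pairs of related genes were compared within each library. The pairs were picked with earlier results of these data known, which their p-values do not take into account. Of 29 pairs chosen for this, 13 had both genes listed, and 11 of them pointed the same way in 5 of 5 libraries. CUL4A exceeded CUL4B by 6.29 ± 0.10 on the log2(FPKM + 1) scale, MDM2 exceeded MDM4 by 4.28 ± 0.53, and WWP1 exceeded WWP2 by 3.50 ± 0.25 (SD, n = 5). CUL5 exceeded CUL2 by 4.55 ± 1.52, with library 5 far nearer to 0 at 1.97. UBE2B exceeded UBE2A by 4.07 ± 0.66, UBR2 exceeded UBR1 by 1.55 ± 0.22, and CUL3 exceeded CUL1 by 0.88 ± 0.15. RBX1 lay below RNF7 (-1.57 ± 0.72), NEDD4 below NEDD4L (-1.84 ± 1.33) and ASB2 below ASB5 (-0.48 ± 0.23).

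For each of the 11 pairs the exact two-sided sign-flip permutation test gave p = 0.0625, the smallest that 5 libraries allow, and 0.0739 after Benjamini-Hochberg adjustment over 13 pairs. UBA1 over UBA6 gave an exact p of 0.125 (adjusted 0.135) at a log2 ratio of -1.31 ± 1.21 with UBA1 lower in 4 of 5 libraries. CBLB over CBL, ligases of tyrosine kinase receptors, gave an exact p of 1 (adjusted 1) at 0.12 ± 1.20, where CBLB was higher in library 3 alone, the library in which CBL was listed at 0. Limma's moderated test, which shares information on spread between the pairs, gave adjusted p of 3.94e-08 for CUL4A over CUL4B, 0.0126 for ASB2 over ASB5 and 0.810 for CBLB over CBL. It put 11 of the 13 pairs under 0.05, UBA1 over UBA6 included, at 0.0402. The ratios of UBA1 over UBA6 ran from -2.74 in library 1, where UBA1 was at 0.0112 FPKM, to 0.05 in library 3. Where one gene of a pair averaged under 1 FPKM, as did CUL4B and UBE2A, the ratio depends mainly on the constant of 1 FPKM.

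**Figure D3:**
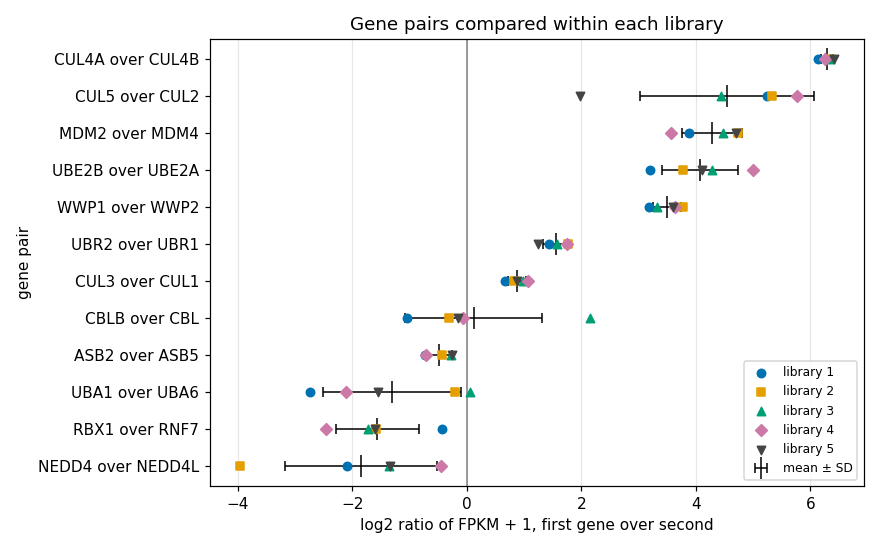
Log2 ratio of FPKM + 1 for 12 of the gene pairs, the first-named gene over the second, with 1 point per library and the mean ± SD over 5 libraries. Points lie on both sides of 0 for UBA1 over UBA6 and CBLB over CBL, and single libraries stand apart for CUL5 over CUL2 (library 5) and CBLB over CBL (library 3).

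The spread of the members between libraries was close to that of all detected genes. The median SD of log2(FPKM + 1) was 0.22 over the 146 detected members, against 0.25 over all 6136 detected genes. An SD of at most 0.25 was found for 84 members (57.5%), against 49.8% of all detected genes, and an SD of at least 1 for 6 members (4.11%), against 3.63%. These shares were not tested against each other. Members that averaged at least 10 FPKM had a median SD of 0.21, against 0.22 for all genes at that level. For detected members under 10 FPKM it was 0.26, against 0.27 for all detected genes under 10 FPKM. UFL1 (SD 0.03), UBA2 (0.06), ASB5 (0.07), ITCH (0.08) and HERC4 (0.09) were the most even of the members at 10 FPKM or more, followed by UBE2E3, UBR1, HERC2, FBXO11 and UBE2Q2. A single library stood far from the other 4 in 12 detected members (8.22%), against 6.76% of all detected genes. ASB5 combined the highest level of any member with this small spread.

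The members of greatest spread were CUL2 (SD 1.60), UBE3C (1.56), TRIM41 (1.51), FBXW7 (1.30), UBA1 (1.22) and CBL (1.05), followed by NEDD4, RNF168, UBE4B and FBXO30. UBE3C, TRIM41, UBA1 and CBL each had a library with less than 0.1 FPKM and another with 5 FPKM or more, and these 4 were 2.74% of detected members, against 1.47% of all detected genes. At 0 in some library were listed 3 detected members (2.05%), against 2.67% of all detected genes. UBE3C, a HECT ligase that works at the proteasome, reached 10.2 FPKM in library 2, and the other 4 libraries list it at 0. TRIM41 was listed at 0 in libraries 1 and 2 and was at 5.33, 6.57 and 5.27 FPKM in libraries 3 to 5. CBL was listed at 0 in library 3 and was between 3.16 and 5.15 FPKM elsewhere. RNF168, a ligase of the DNA damage response, was at 5.48, 9.26, 3.19, 1.12 and 1.41 FPKM in libraries 1 to 5. A value of 0 here can be a failed estimate for the transcript, so these patterns are given per library and not as levels of the gene. UBE3C, CBL, FBXW7, CUL2, RNF168, UBE4B and FBXO30 had gaps in their transcript numbers, and UBA1, TRIM41 and NEDD4 had none. Having no gap does not show a complete sum, because missing transcripts numbered above the highest listed one leave no gap.

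**Figure D4:**
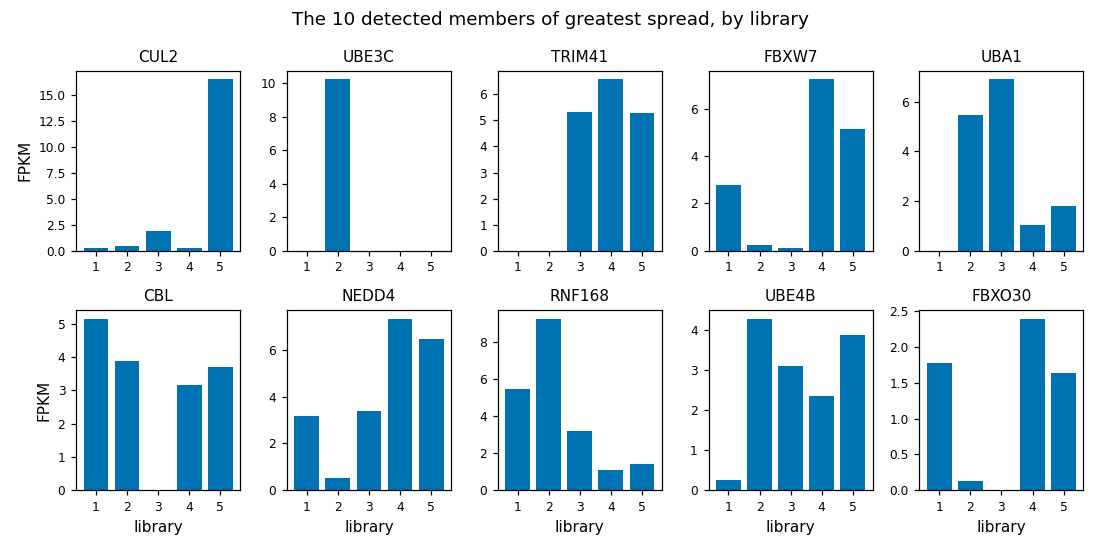
FPKM in libraries 1 to 5 of the 10 detected members of greatest SD of log2(FPKM + 1), each on its own axis from 0. CUL2 is high in library 5 and UBE3C in library 2, while CBL is listed at 0 in library 3 and TRIM41 in libraries 1 and 2.

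**Figure D5:**
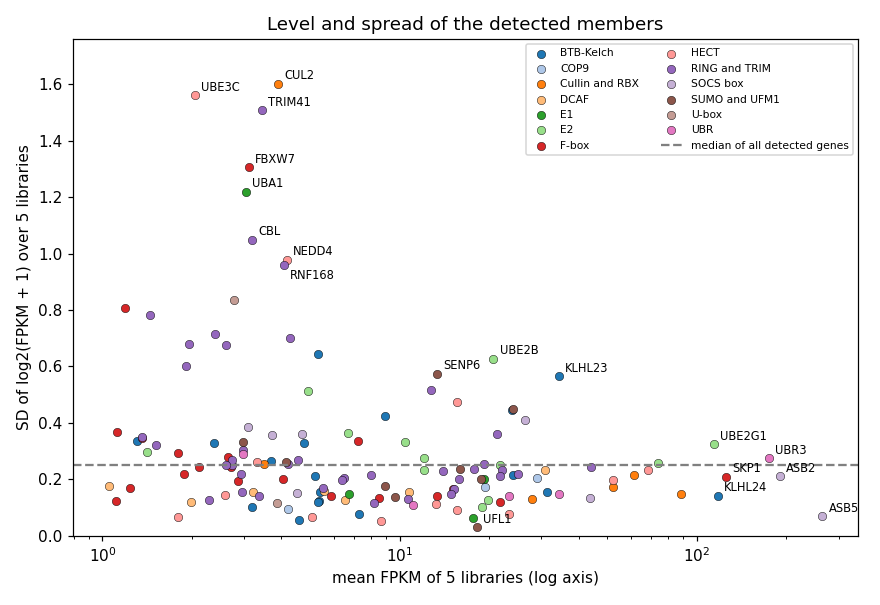
SD of log2(FPKM + 1) over 5 libraries against mean FPKM (log axis) for the 146 detected members, coloured by class, with the median SD of all detected genes, 0.25, as a broken line. Members of SD over 1 all lie under 5 FPKM, and ASB5 and UFL1 lie near the bottom.

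Transcript estimates moved more than gene sums for some members. The 173 members had 289 listed transcripts, and 99 members had 1 each. Among the 71 detected members with several transcripts, the same transcript was highest in all 5 libraries for 56 and changed for 15 (21.1%), against 28.7% of all detected genes with several listed transcripts. HERC4 was one of the 15: HERC4-201 carried 45.3%, 76.2%, 44.2%, 60.4% and 89.0% of its FPKM in libraries 1 to 5, while the gene sum stayed between 14.6 and 17.4 FPKM. For SENP7, SENP7-201 was highest in libraries 1 and 4 and listed at 0 in libraries 2, 3 and 5, SENP7-203 was highest in library 2, and SENP7-202 carried 96.0% and 95.2% in libraries 3 and 5. The SENP7 sum nonetheless lay between 7.19 and 10.4 FPKM. NEDD4L was divided among NEDD4L-206, NEDD4L-205 and NEDD4L-204, each the highest in at least 1 library. The abundant members were simpler, with ASB5-201 holding 99.96% of ASB5 on average, ASB2-204 97.9% of ASB2, CUL3-201 99.2% of CUL3 and UBR3-201 96.2% of UBR3.

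Library 1 was the low library for many members. It held the lowest value of 54 of the 146 detected members (37.0%), against 26.5% of all detected genes, and the lowest summed FPKM in 13 of 13 classes. The median deviation of detected members from their own mean was -0.08 in library 1, and 0.04, 0.02, 0.04 and 0.07 in libraries 2 to 5 on the log2 scale. For all detected genes it was 0.00 in library 1 and between -0.02 and 0.03 in the others. It held the highest value of 24 detected members (16.4%), against 24.4% of all detected genes. With FPKM rescaled to a fixed total per library, library 1 was lowest for 41 members (28.1%, against 19.7% of genes) and in 9 of 13 classes, and library 4 for 46 members (31.5%, against 33.3%) and in the other 4 classes. Median-ratio scaling gave 61 members (41.8%, against 29.6%) and 13 of 13 classes for library 1. Library 1 also had the lowest summed FPKM, the highest fibroblast marker sum (845 FPKM, against 394, 541, 769 and 460.5 in libraries 2 to 5) and the highest smooth muscle marker sum (58.0 FPKM, against 20.5 to 41.3). Its muscle fibre marker sum was the lowest (18739 FPKM, against 20577 to 23399), and its endothelial (90.3 FPKM, against 77.9 to 89.3) and leukocyte sums (3.97 FPKM, against 1.77 to 3.52) were the highest. Single markers did not all follow these sums. Of the fibroblast markers, COL3A1 and COL1A2 were highest in library 1, but PDGFRA in library 4. Of the muscle fibre markers, TPM2, TNNC1, MYLPF, MYL1 and TNNI2 were lowest in library 1, but MYH7 and CKM were highest there. The endothelial markers CDH5, PECAM1 and VWF and the leukocyte marker CD3E were highest in other libraries. The part of the summed FPKM and of the markers in the result was not tested. With 1 library per animal, animal and library preparation cannot be told apart.

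Of 55 symbols in the list of pathway genes outside the rule, 33 were listed and 30 of these detected (90.9%, against 71.4% of listed genes with a symbol). The exceptions were VCP, ZNRF1 and ZNRF2. RPS27A, which encodes ubiquitin fused to a ribosomal protein, averaged 376 ± 72.7 FPKM (SD, n = 5), with 329, 312, 341, 487 and 411 FPKM in libraries 1 to 5. SAE1, the partner of UBA2, averaged 15.4 ± 2.15 FPKM. VCP, the segregase that extracts ubiquitinated proteins, did not exceed 0.233 FPKM, from a single listed transcript of a gene with a gap in its numbers, so that low sums such as those of VCP and HUWE1 may be incomplete.

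The detection limit left out 27 members (15.6%), and levels ran without a break across it. Just inside were FBXL15 at 1.12 FPKM, FBXL19 at 1.11 and DCAF1 at 1.05, and just outside were FBXL2 at 0.989, TRIM65 at 0.955 and KLHL13 at 0.921 FPKM. FBXL22, an F-box protein of the cardiac Z-disc, reached 2.39 FPKM in library 4 but no more than 0.624 FPKM in any other. Gaps in transcript numbers occurred in 54 members (31.2%), against 34.7% of listed genes with numbered transcripts. Members spanned a median of 36.5 kb of genome, against 36.7 kb for genes with a symbol, and 14 (8.09%, against 9.95% of all genes) overlapped another listed gene. Among these were UFL1, NEDD4, SENP7, ASB16 and UBE2A, for which reads of the overlapping gene may be shared, as no source states whether strand was used. Members lay on 29 chromosomes, with no more than 12 on any of them, and 5 pairs of members lay within 100 kb of each other, including FBXO6 and FBXO44, which were 5.90 kb apart at 2.65 and 1.36 FPKM.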

How the data were processed

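Per the labels' protocols, NEBNext libraries were made from total RNA of longissimus dorsi, 1 for each of 5 animals. The authors deposited transcript-level FPKM, per the file headers. A build (UMD3.1) and 2 tools, DESeq2 1.10.1 and HTSeq 0.6.0, appear in the submitters' processing notes with no roles. Nothing names the aligner, the annotation, the strand setting or the program behind the FPKM. By symbol, 173 of 173 members matched a RefSeq gene table of ARS-UCD2.0 at an overlapping location, so the deposited table's coordinates are given without naming a build.

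Transcript FPKM were summed per gene identifier with Python 3.11.15, pandas 2.3.3, numpy 2.4.6, scipy 1.17.1 and matplotlib 3.10.9. Spread was the SD of log2(FPKM + 1) over libraries, which understates changes of low genes. A mean of 1 FPKM was the detection limit. Depth is unknown, so no counting interval was computed. Pairs were tested with an exact two-sided sign-flip test and with limma 3.58.1 in R 4.3.3, both tried on simulated data. The limma simulation gave every row the same SD, whereas the SDs of these pairs differed, so it does not show limma's error rates here. Members, classes, lists and pairs were chosen with earlier results of these data known. Named genes were the listed genes known or studied in muscle, the 3 highest of each class and the 10 most variable. At 10 FPKM or more, the 10 least variable were named too. Those both near zero and expressed, pair members and the 3 on each side of the detection limit were also named. So was every listed E1, cullin, COP9, SUMO and UFM1 gene, and other genes were named after their values were seen. The exact sign-flip test of 5 ratios that share a sign gives p = 0.0625 whatever their spread. For such pairs it reflects direction alone. Limma's p-values set the mean log2 ratio of a pair against a spread partly shared between the pairs. Neither kind of p-value covers errors that repeat in every library, such as transcripts that are not listed. Alternatives were another added constant, other filters, rescaling, the highest transcript in place of the sum, and leaving out each library. Protein and promoter sequences were not used here. No column was left unmapped. Some genes are not reported here by name, though they stay in sums, counts and adjustments.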

Additional observations from a re-analysis of the deposited data

Results flagged for a closer look

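In 7 named members with a mean of at least 1 FPKM, 1 library lay far from the other 4, its gap to the nearest value being over 0.71 of the whole range. Such a gap was met by 12 of 146 detected members (8.22%), against 6.76% of all detected genes, and chance gives about 1 in 20. Library 1 was low for UBR3 (123.7 FPKM), CUL4A (73.28 FPKM) and CUL3 (41.95 FPKM). Library 4 was low for WWP2, at 4.595 FPKM, a gene whose range was small. Library 2 was high for the SOCS box gene ASB10, at 7.485 FPKM, and for UBE3C, at 10.22 FPKM with 0 listed elsewhere. Library 5 was high for CUL2, at 16.47 FPKM, where both listed transcripts were raised, CUL2-203 at 9.90 and CUL2-202 at 6.57 FPKM.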

How the results depend on the processing

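The detection count of 146 was 83 at a limit of 5 FPKM, 123 with 1 FPKM required in every library, and 109 among members with no gap in transcript numbers, which was added once the data had been seen. Leaving out single libraries gave 144 to 148. The number of members with an SD of at least 1 was 14 with log2(FPKM + 0.1), 0 at a limit of 5 FPKM, 0 with 1 FPKM required in every library and 2 among members with no gap. The count of members that were near zero in some library yet expressed elsewhere was 0 at a limit of 5 FPKM, 2 among members with no gap, and between 2 and 4 with single libraries left out, the 2 without library 1. Members with no gap may still lack transcripts.

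The members' share of summed FPKM was 1.49% with mitochondrial genes left out of the total. With the highest transcript in place of the sum, the BTB-Kelch sum was 277 FPKM and the DCAF sum 51.9 FPKM, and 11 of the named members' means moved by more than 1 SD. CBLB over CBL turned to -0.53 with the highest transcript and ranged from -0.39 (without library 3) to 0.41 (without library 1) with single libraries left out. No other pair changed sign. With limma, 11 pairs passed an adjusted p of 0.05 that the exact test cannot reach: log2 ratios of -0.48 for ASB2 over ASB5, 0.88 for CUL3 over CUL1, 6.29 for CUL4A over CUL4B, 4.55 for CUL5 over CUL2, 4.28 for MDM2 over MDM4, -1.84 for NEDD4 over NEDD4L, -1.57 for RBX1 over RNF7, -1.31 for UBA1 over UBA6, 4.07 for UBE2B over UBE2A, 1.55 for UBR2 over UBR1 and 3.50 for WWP1 over WWP2. The causes were not tested. Genes were paired within libraries, but libraries could not be paired between conditions because they form 1 group. Unknown depth limits the precision of low values.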
